A study of Rattus norvegicus with 5 samples.

Results

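The matrix proteases and their inhibitors considered here are 9 genes chosen by name: the inhibitors Timp1, Timp2 and Timp3, the metalloproteinases Mmp2, Mmp9 and Mmp14, the plasminogen activators Plat and Plau, and the receptor Plaur. Every probe set (a group of short oligonucleotides that reads 1 transcript) annotated with 1 of these symbols alone was taken, which gave 11 of the 8740 probe sets other than controls. Timp1 and Mmp2 had 2 probe sets each and the other genes 1. RNA came from Müller cells, the radial glia of the retina, isolated from male Sprague-Dawley rats. The diabetic rats had been given streptozotocin, a toxin of pancreatic beta cells, had been diabetic for 6 months and were given small amounts of insulin against wasting. The normal rats were healthy, and their age, like that of the diabetic rats, is not given in the labels. The retinas of 12 rats were pooled for each preparation, and 2 arrays carried diabetic cells and 3 arrays normal cells. Since the second diabetic array is labelled a technical replicate, both were averaged on the log2 scale and counted as 1 pool, against 3 normal pools, of which numbers 2 and 3 are labelled biological replicates.

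Metalloproteinases are secreted or membrane-bound zinc enzymes that cut collagens, laminins and other matrix proteins, and most are made as inactive precursors. Tissue inhibitors of metalloproteinases, the Timp proteins, bind the active enzymes and block them. Plasminogen activators convert plasminogen to plasmin, a protease that degrades fibrin and matrix and can activate metalloproteinase precursors. In the retina this system acts on the inner limiting membrane, on which Müller cell endfeet rest, and on the basement membrane of capillaries, and it has been studied in diabetic retinopathy.

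The deposited signals were not on a common scale, with array medians of 27.9 to 91.3, so the arrays were quantile-normalised, and values under a floor of 20 were set to 20 before log2. Signals below are normalised linear signals unless called deposited, and differences are log2, diabetic minus normal. The 30% dimmest probe sets were left out of testing, which kept 6118 probe sets, among them 8 of the 11 considered here. Of 12 Müller cell markers listed, 8 had a probe set of their own and all 8 were bright enough to be tested. Glul, the glutamine synthetase of these cells, had signals of 8290 and 7984 on the diabetic arrays and 7532, 9373 and 11797 on the normal arrays. Gfap, Rlbp1, Sox2 and Dkk3 were not analysed here. Diabetic array 2 and normal array 1 had the highest ratios of 3' to 5' actin signal (2.55 and 2.61, against 1.46 to 1.76 on the other arrays), a measure of RNA integrity. Diabetic array 2 and normal array 3 had the same hybridisation day and chip lot. Normal array 1 and normal array 2 shared their combination of day and lot with no other array, and for diabetic array 1 this combination was not recorded.

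Of the 8 tested probe sets, the 2 of Timp1 had both diabetic arrays above all normal arrays, Timp3 had the only negative difference, and Timp2, Mmp2, Mmp14, Plat and Plau had overlapping groups and differences of 0.10 to 0.40. With limma, 0 of the 8 had an adjusted p under 0.05, where 0 of all 6118 probe sets (0%) did, and 0 of the 8 had an unadjusted p under 0.05, against 98 of 6118 (1.6%). The lowest adjusted p among the 8 was 0.9999. No other tool was run. The diabetic arrays exceeded every normal array for 2 of the 8 probe sets, against 583 of 6118 (9.53%), and lay under every normal array for 0 of the 8, against 429 of 6118 (7.01%). Without scaling between arrays these counts over all probe sets were 520 and 13. The 2 probe sets above are both of Timp1 and come from 1 transcript, so the count rests on a single gene. Counting each gene by its brightest tested probe set, the median difference of the 7 genes was 0.22, with 6 above and 1 below 0, beside a median of -0.010 over all tested probe sets. Precision is limited by the number of arrays, and each p-value takes its spread from the 3 normal pools, as if further diabetic pools would spread alike. An exact permutation test with 1 pool on one side could not give a p below 0.25.

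**Figure D1:**
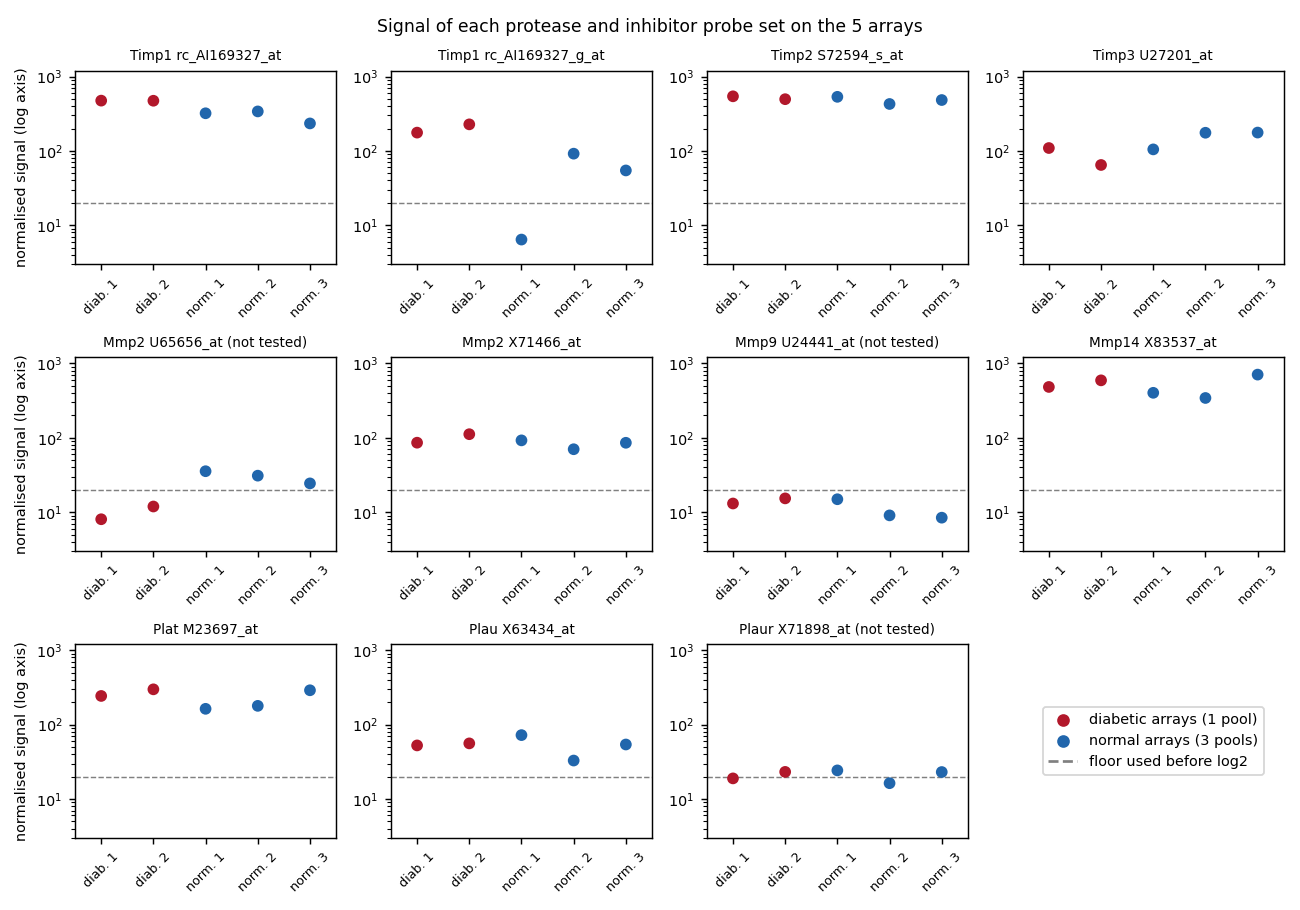
Normalised signal (log axis) of all 11 probe sets on the 2 diabetic arrays (red) and the 3 normal arrays (blue), with the floor of 20 as a dashed line. In both Timp1 panels the red points lie above all blue points, while all 5 points of Mmp9 lie under the floor.

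Timp1 encodes a secreted inhibitor of many metalloproteinases and is known to be induced in reactive glia. Its brighter probe set, rc_AI169327_at, had signals of 474 and 472 on the diabetic arrays, against 320, 339 and 234 on the normal arrays. Both diabetic arrays lay above the highest normal array. They were closer to each other than any pair of normal arrays was. Since they repeat 1 pool and the normal arrays are separate pools, this closeness does not measure the spread of diabetic pools. The difference was 0.69 (SE 0.33, 95% confidence interval -0.14 to 1.51), or 1.61 times normal, and did not pass limma's test (unadjusted p = 0.0868, adjusted p = 0.9999). Of all tested probe sets, 9.89% had a larger absolute difference. In the deposited values, before any scaling, the signals were 504.3 and 537.0 on the diabetic arrays, against 179.6, 163.4 and 397.1 on the normal arrays, again with no overlap. Between the arrays of the shared day the difference was 1.01, and on the 3 arrays with the lower actin ratio it was 0.77.

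The second Timp1 probe set, rc_AI169327_g_at, is built on the same expressed sequence and so is not independent of the first. It had signals of 176 and 227 on the diabetic arrays, against 6.42, 91.8 and 54.6 on the normal arrays. The value under the floor on normal array 1 widened both the difference and its error. The difference was 2.11 (SE 0.89, 95% confidence interval -0.11 to 4.33; limma, unadjusted p = 0.0591, adjusted p = 0.9999), and 0.229% of tested probe sets had a larger absolute one. It was 1.53 without normal array 1, 2.06 for the pair of arrays from the shared day and 1.37 on the 3 arrays with the lower actin ratio. With a floor of 10 it was 2.44 and with a floor of 50 it was 1.67, so its size depends on how the dim normal value is treated.

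Markers of leukocytes and photoreceptors had differences of the same sign as Timp1. Of the 8 tested markers of microglia and other leukocytes, 8 had positive differences, 5 had both diabetic arrays above all normal ones (9.53% of all tested probe sets did), and their summed signal was 923 and 1039 on the diabetic arrays and 615 to 686 on the normal arrays. Itgam and Csf1r, which define these cells, were too dim to be tested. All 6 tested photoreceptor markers also had positive differences, 4 without overlap. Their sums were 12140 and 12997 on the diabetic arrays, against 9588, 9134 and 3955 on normal arrays 1, 2 and 3, where normal array 3 stood apart. The part of leukocytes and photoreceptors in the Timp1 difference was not tested. In such preparations more cells of a type and more RNA per cell cannot be told apart.

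RefSeq promoters (250 bases before to 50 after the annotated start, build GRCr8) were matched by symbol for 5 of the 9 genes, Timp1, Timp2, Timp3, Plau and Plaur. The promoters of Timp1 and Timp3 are shown because these inhibitors had the largest differences and opposite signs. Timp1 lies at chrX:3771073-3771372 and Timp3 at chr7:19459509-19459808, both on the minus strand, and both are written 5′ to 3′ along the gene. Capitals mark the letters searched on both strands, TGANTCA (the consensus of the Fos and Jun factor AP-1), TGAGTAA (a variant of it known from the mouse and human Timp1 promoters), AGGAAG (a core bound by Ets factors) and GGGCGG (the GC box).
Timp1: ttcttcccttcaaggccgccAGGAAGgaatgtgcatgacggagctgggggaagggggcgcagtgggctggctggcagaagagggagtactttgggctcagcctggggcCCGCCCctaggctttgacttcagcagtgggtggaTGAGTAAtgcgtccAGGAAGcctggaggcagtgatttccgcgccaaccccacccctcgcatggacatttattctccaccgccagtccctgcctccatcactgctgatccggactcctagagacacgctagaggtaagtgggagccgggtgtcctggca
Timp3: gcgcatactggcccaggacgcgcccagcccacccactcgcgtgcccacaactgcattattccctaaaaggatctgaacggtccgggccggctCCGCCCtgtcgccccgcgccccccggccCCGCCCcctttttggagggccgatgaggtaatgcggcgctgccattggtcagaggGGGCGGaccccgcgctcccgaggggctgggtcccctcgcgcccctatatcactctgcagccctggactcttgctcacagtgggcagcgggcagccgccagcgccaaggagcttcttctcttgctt
The Timp1 promoter held TGAGTAA from base -108 to -102, which 2.9% of 33469 promoters of this length hold, and AGGAAG at -230 to -225 and at -94 to -89, which 34.5% hold. It also held 1 GC box, found in 33.1% of promoters, and no TGANTCA, which 7.33% hold. The Timp3 promoter held 3 GC boxes and none of the other letters. Timp2 had 1 GC box and Plau 3, without the other motifs, and Plaur had TGACTCA at -83 to -77 and AGGAAG at 2 places. Since TGAGTAA was already known from Timp1 promoters of other species, its match in Timp1 was likely beforehand. The 2.9% is therefore a background share and no measure of how unexpected that match was. A match describes letters in the window, and its absence says nothing about a factor.

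Timp3, which stays bound to the extracellular matrix and is known from Sorsby fundus dystrophy of the human eye, had signals of 109 and 64.6 on the diabetic arrays, against 105, 175 and 176 on the normal arrays. Diabetic array 2 was the lowest of all and diabetic array 1 lay just above normal array 1, so the groups overlapped. The difference was -0.82 (SE 0.46, 95% confidence interval -1.97 to 0.34), or 0.568 times normal, and did not pass limma's test (unadjusted p = 0.133, adjusted p = 0.9999). A larger absolute difference was found for 6.39% of tested probe sets. The diabetic arrays differed from each other by 0.76 on the log2 scale, as much as the whole range of the normal arrays (0.75). Without diabetic array 2 the difference was -0.45, and without diabetic array 1 it was -1.19. For the pair of arrays from the shared day it was -1.45. Without normal array 1 it was -1.08, with an unadjusted p of 0.0194 in limma that did not pass after adjustment. On the 3 arrays with the lower actin ratio it was -0.72.

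Endothelium, pericytes and pigment epithelium are known sources of Timp3. Of 10 tested markers of endothelium, pericytes and fibroblasts, 9 had negative differences, where 3132 of all 6118 tested probe sets did. Without overlap, 0 of the 10 lay below normal and 1 above, beside 7.01% and 9.53% of all tested probe sets. The summed signal of the 10 overlapped between groups, at 2643 and 3178 on the diabetic arrays and 2785 to 3725 on the normal arrays. Pdgfrb, the pericyte receptor for platelet-derived growth factor, had signals of 76.9 and 26.8 on the diabetic arrays and 90.2, 88.9 and 71.5 on the normal arrays, and like Timp3 it was lowest on diabetic array 2. Cspg4, another pericyte marker, had the opposite sign, with 76.9 and 67.7 on the diabetic arrays, both above the 16.7, 42.3 and 54.8 on the normal arrays (difference 1.01, SE 0.70). Rpe65, the only pigment epithelium marker with a probe set, and the muscle and pericyte filament gene Des were at the floor on all 5 arrays. The Müller cell markers Aqp4 (138), Kcnj10 (31.2) and Vim (2067) were also lowest on diabetic array 2. Glul, Slc1a3, Car2, Apoe and Clu were not. The part of vascular cells in the Timp3 difference was not tested.

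Timp2, which inhibits metalloproteinases and also helps Mmp14 to activate the Mmp2 precursor, had signals of 542 and 496 on the diabetic arrays, against 533, 427 and 483 on the normal arrays. The groups overlapped, since normal array 1 lay between the diabetic arrays. The difference was 0.11 (SE 0.27), with a 95% confidence interval of -0.55 to 0.78. A change past 1 on the log2 scale lies outside this interval in both directions. With 1 diabetic pool, the interval holds only if further diabetic pools would spread like the normal ones, which could not be checked.

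Since array scaling can shift all members together, Timp1 was also set against each other member within an array, where a factor common to the array cancels in the deposited values. This was added after the values were seen, and only the change of a ratio between arrays can be read, not its level. The log2 ratio of Timp1 to Timp3 was 2.10 and 2.76 on the diabetic arrays, against 1.40, 0.98 and 0.43 on the normal arrays, without overlap and with a difference in means of 1.49 (SD of the normal arrays 0.49). The log2 ratio of Timp1 to Timp2 was -0.20 and -0.08 on the diabetic arrays, against -0.65, -0.35 and -1.11 on the normal arrays, also without overlap, with a difference of 0.56 (SD 0.39). The ratios to Mmp2, Mmp14, Plat and Plau overlapped between the groups, so 2 of 6 ratios separated the arrays. Since the Timp1 signal alone had no overlap, such a separation can come from Timp1 itself. The share of all genes whose ratio would separate the arrays was not computed. For Mmp14 they were -0.03 and -0.31 on the diabetic arrays, against -0.28, -0.01 and -1.66 on the normal arrays, where normal array 3 alone stood apart. No p is given for these ratios, and normalised values gave the same 2 ratios without overlap.

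**Figure D2:**
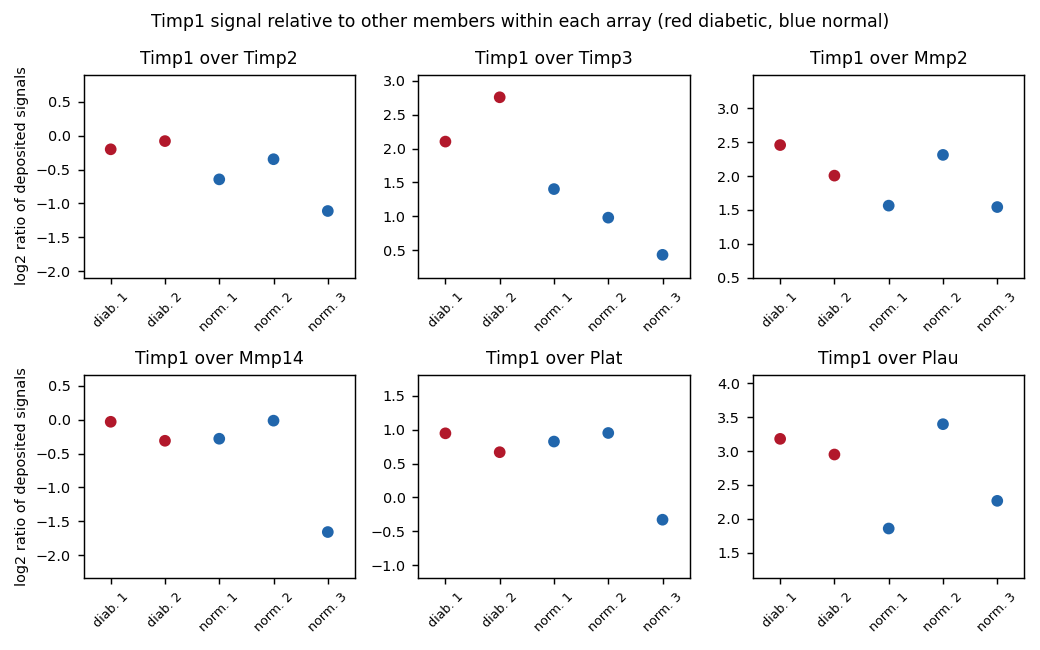
Log2 ratio of the deposited Timp1 signal to that of each other gene with a tested probe set, per array, with diabetic arrays in red and normal arrays in blue. Each panel spans the same number of log2 units, and only the ratios to Timp2 and Timp3 have both diabetic arrays above all normal arrays.

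Mmp14, a membrane-anchored metalloproteinase that activates the Mmp2 precursor at the cell surface, had signals of 482 and 592 on the diabetic arrays, against 402, 343 and 706 on the normal arrays. Normal array 3 was the highest of all and the other normal arrays lay below both diabetic arrays. The difference was 0.22 (SE 0.45, 95% confidence interval -0.91 to 1.34; limma, adjusted p = 0.9999). It was 0.51 without normal array 3, 0.0047 without normal array 2, 0.12 without normal array 1 and 0.064 without diabetic array 2. Its sign turned between the arrays of the shared day (-0.26) and on the 3 arrays with the lower actin ratio (-0.033).

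Plat, the tissue plasminogen activator, had signals of 243 and 298 on the diabetic arrays, against 163, 179 and 290 on the normal arrays. As for Mmp14, normal array 3 lay among or above the diabetic arrays while normal arrays 1 and 2 lay below them. The difference was 0.40 (SE 0.43, 95% confidence interval -0.66 to 1.47; limma, adjusted p = 0.9999), and it was 0.64 without normal array 3. It was only 0.042 between diabetic array 2 and normal array 3, which shared a day and lot, and 0.096 on the 3 arrays with the lower actin ratio. For both genes, then, normal arrays differed among themselves (by 1.04 for Mmp14 and 0.83 for Plat) more than the groups did.

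The brighter Mmp2 probe set, X71466_at, for a gelatinase, had signals of 85.8 and 112 on the diabetic arrays, against 92.2, 70.1 and 85.6 on the normal arrays, with overlap and a difference of 0.25 (SE 0.43, 95% confidence interval -0.83 to 1.34). The second, U65656_at, pointed the other way. It was at 8.02 and 11.9, under the floor, on both diabetic arrays and at 35.5, 30.9 and 24.3 on the normal arrays. After normalisation both diabetic arrays lay below all normal arrays, and the normalised signal was at least 1.49-fold lower in the diabetic pool, counted against the floor. In the deposited values the groups overlapped, with diabetic array 2 at 16.3 and normal array 2 at 14.6. This probe set was too dim to be among the 6118 tested. Fitted without the filter, its difference was -0.58 (SE 0.27; limma, unadjusted p = 0.123, adjusted p = 1). The 2 probe sets therefore gave no common direction for Mmp2.

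Plau, the urokinase-type plasminogen activator, had signals of 52.5 and 55.9 on the diabetic arrays, against 72.3, 32.9 and 54.0 on the normal arrays. The diabetic arrays lay inside the normal range, and the difference was 0.10 (SE 0.60, 95% confidence interval -1.41 to 1.61). Its sign turned without normal array 2 (-0.20) and with a floor of 50 (-0.098). Plaur, the receptor that holds urokinase at the cell surface, was near the floor throughout, at 18.9 and 23.1 on the diabetic arrays and 24.2, 16.3 and 23.0 on the normal arrays. Mmp9, the gelatinase that neutrophils and activated macrophages are known to release, was under the floor on all 5 arrays, at 13.1 and 15.3 on the diabetic arrays and 14.9, 9.04 and 8.42 on the normal arrays. Neither Plaur nor Mmp9 was bright enough to be tested, so a change of either could not be measured here.

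**Figure D3:**
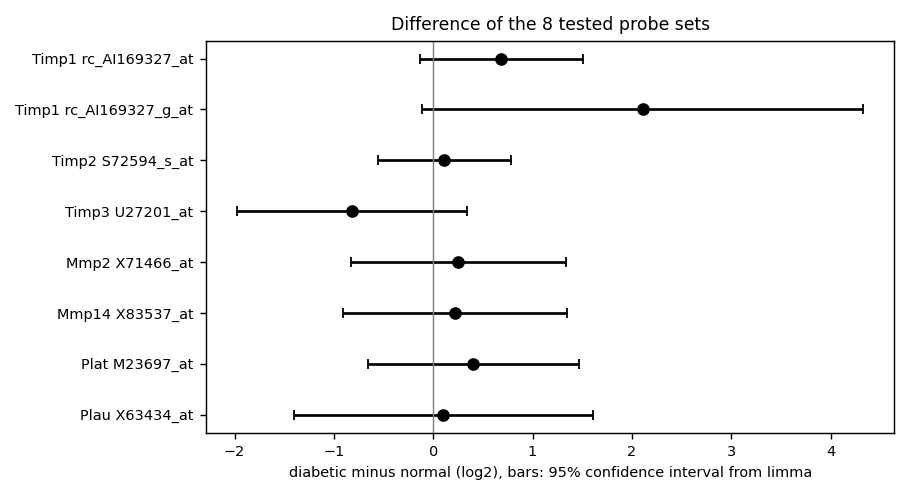
Log2 difference, diabetic minus normal, of the 8 tested probe sets, with 95% confidence intervals from limma (1 diabetic and 3 normal pools). All 8 intervals include 0, and those of the Timp1 probe sets start just below it, at -0.14 and -0.11.

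Among related genes from lists of the same system, 0 passed limma's adjustment. The plasminogen list had 11 tested genes, 5 with positive and 6 with negative differences, a median of -0.11 and 0 with an unadjusted p under 0.05. Without overlap, 2 of the 11 genes lay above normal and 1 below, beside 9.53% and 7.01% of all tested probe sets. The 2 above were Anxa2 and S100a10, whose proteins form a complex that binds Plat and plasminogen at the cell surface. Anxa2 had signals of 116 and 150 on the diabetic arrays, against 59.0, 82.3 and 88.8 on the normal arrays, with a difference of 0.80 (SE 0.46). S100a10 had signals of 67.6 and 82.4 on the diabetic arrays, against 18.2, 43.9 and 47.1 on the normal arrays. The S100a10 difference was 1.11 (SE 0.66), where normal array 1 was under the floor. The tissue factor gene F3, which starts coagulation, was the only gene of the list without overlap below normal, at 204 and 164 on the diabetic arrays, against 248, 398 and 418 on the normal arrays, with a difference of -0.92 (SE 0.40; limma, unadjusted p = 0.0629). Plg, encoding plasminogen itself, was under the floor on all 5 arrays, at 6.68 and 4.94 on the diabetic arrays and 6.08 to 7.88 on the normal arrays.

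Of the other metalloproteinases, 9 genes were tested, 5 with positive and 4 with negative differences, with a median of 0.050. Adam17, the enzyme that releases tumour necrosis factor from the cell surface and is itself inhibited by Timp3, had signals of 39.1 and 46.4 on the diabetic arrays, against 110, 108 and 86.5 on the normal arrays, without overlap. Its difference was -1.24 (SE 0.44, 95% confidence interval -2.33 to -0.15), with an unadjusted p of 0.0319 and an adjusted p of 0.9999 in limma. That value rests on 1 probe set, AJ012603cds_at. A pair of tested probe sets whose names start alike, but which have no symbol in the annotation, had differences of 0.0019 (SE 0.47) and 0.54 (SE 0.80). Mmp23 had a difference of 0.89 (SE 0.60), where 1 normal array was under the floor, and Mmp7, also called matrilysin, 0.49 (SE 0.60). Mmp8, Mmp10, Mmp13, Mmp16 and Mep1b were at the floor on all 5 arrays.

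Other inhibitors and partners had 7 tested genes, 4 with positive differences, a median of 0.11 and 2 with an unadjusted p under 0.05. These 2 were Serping1, the C1 inhibitor, and A2m, alpha-2-macroglobulin, which traps proteases of all classes. On 2 of the 6 probe sets of A2m, M23566exon_s_at and rc_AA900582_at, the differences were 0.91 (SE 0.22) and 0.87 (SE 0.24), while on the other probe sets they ran from -0.14 to 0.996. On M23566exon_s_at all 3 normal arrays had the same normalised signal, 2882, and so no spread of their own. Its SE in limma combines this lack of spread with the spread of other probe sets, which makes it smaller. The 0.996 was on rc_AI113046_at, where normal arrays 1 and 2 were under the floor. On rc_AA900582_at the A2m signals were 2620 and 2940 on the diabetic arrays, against 1613, 1582 and 1384 on the normal arrays. Serping1 had the largest difference of any gene in these lists, at 3.35 (SE 0.42; limma, adjusted p = 0.495). Spock2, a matrix proteoglycan, had 0.31 (SE 0.32). Timp4 was not analysed here.

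All 6 tested cathepsins, lysosomal proteases that can also act on matrix once secreted, had positive differences, where 2986 of all 6118 tested probe sets did. Their median was 0.34, and 0 had an unadjusted p under 0.05 in limma. Ctss, a cathepsin of microglia and macrophages, had signals of 1358 and 1548 on the diabetic arrays, against 952, 1259 and 1036 on the normal arrays, with a difference of 0.43 (SE 0.26). Ctsd had 0.42 (SE 0.36) and Ctsb 0.26 (SE 0.27). Ctsh, at 0.024 (SE 0.28), and Ctsl, at 0.021 (SE 0.24), hardly differed. Ctsc had 0.69 (SE 0.72), with normal array 1 at 67.7 and the other normal arrays at 200 and 208. The 8 leukocyte markers given beside Timp1 also had positive differences, and their part in these differences was not tested.

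**Figure D4:**
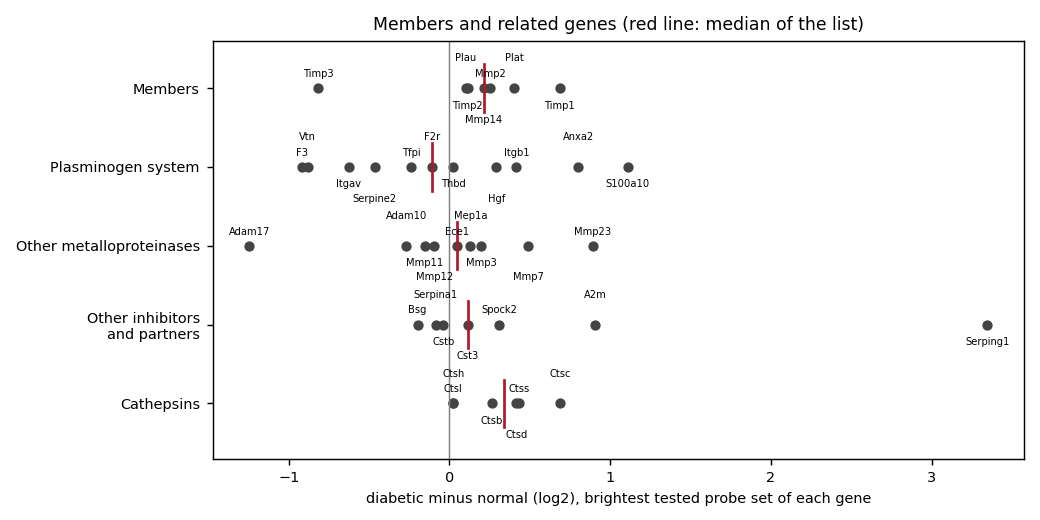
Log2 difference, diabetic minus normal, of the brightest tested probe set of each gene, for the 7 genes tested here (Members) and for 4 lists of related genes, with the median of each list as a red line. Timp1 and Timp3 mark the ends of the members, and Adam17 and Serping1 the ends of all genes shown.

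The genes whose signals over the 5 arrays were most like those of Timp1 were sought among 3623 genes, each by its brightest tested probe set, as the smallest Euclidean distance between log2 values centred on each gene's mean. They were Zup1 (distance 0.23), which encodes a ubiquitin protease, the tyrosine phosphatase gene Ptpn21 (0.23), the calcium channel subunit gene Cacnb2 (0.25), the cold shock domain gene Ybx3 (0.26) and the acetylcholine receptor subunit gene Chrnb1 (0.29). Their own differences ran from 0.50 for Cacnb2 to 0.80 for Chrnb1, and each was lowest on normal array 3, as rc_AI169327_at of Timp1 was. The genes were picked by likeness to that probe set over the same arrays, so these shared features follow from the choice. The other Timp1 probe set, rc_AI169327_g_at, was lowest on normal array 1 instead (6.42, against 54.6 on normal array 3).

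**Figure D5:**
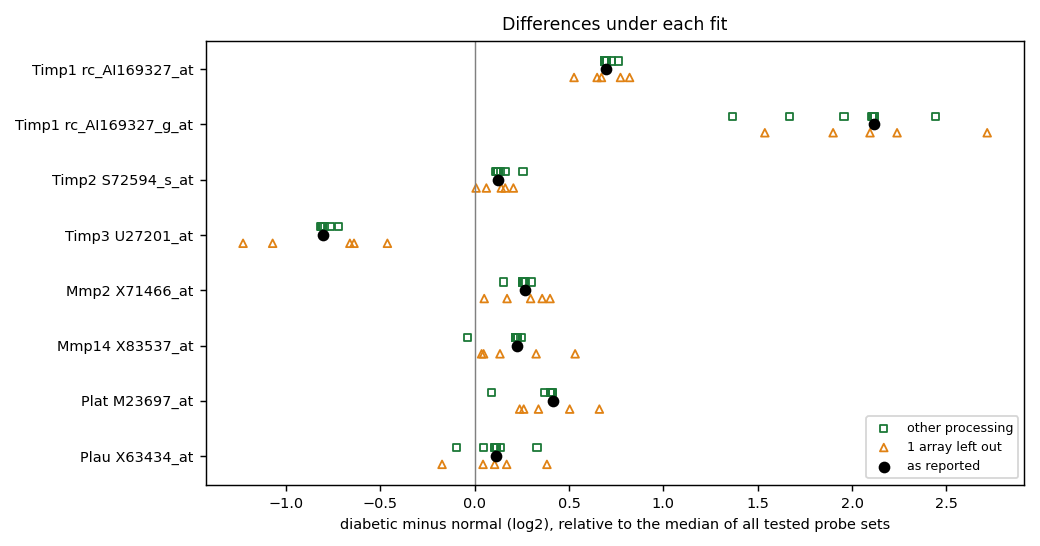
Log2 difference, diabetic minus normal, of each tested probe set relative to the median of all tested probe sets in the same fit, as reported (black), under other processing (green squares) and with 1 array left out (orange triangles). The green squares include the fit on the 3 arrays with the lower actin ratio. Both Timp1 probe sets stay above 0 and Timp3 below 0 in every fit shown, while Mmp14 and Plau cross 0. Mmp14 does so only in the fit on those 3 arrays.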

How the data were processed

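The deposited value table holds 1 linear intensity per probe set and array for 5 arrays, which per the file headers were Affymetrix RG_U34A chips. For the summary algorithm and scaling used by the authors, the sources used here give nothing. The deposited experiment records, of another kind than measurements, served only to place arrays by day and lot. The trimmed means (2%) of the arrays differed 3.52-fold, so arrays were quantile-normalised over all 8799 probe sets, floored at 20 and put on the log2 scale. The 59 control probe sets and the dimmest 30% of the rest were then left out. Probe sets took their symbols from the supplied platform annotation, and probe sets with several symbols or none were not named. A gene is led by its brightest tested probe set, by the mean of the group means.

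Diabetic and normal pools, 1 against 3, were fitted with limma 3.58.1 in R 4.3.3 (lmFit, eBayes with trend, two-sided, Benjamini-Hochberg over 6118 probe sets, 2 residual and 3.54 prior degrees of freedom). Named genes were all 9 genes of the set, the 3 with the largest moderated statistic in each of 4 related lists, Plg, A2m and Timp4 where measured (a further gene of this rule is not reported here), and the 5 genes most like Timp1. Genes and lists were chosen with earlier results of these data known. The limma step was tested on 20 simulated data sets of 1 pool against 3 (6118 probe sets, 200 changed), where the share of changes recovered was 13.2% at 8-fold, 0.992% at 4-fold and 0.225% at 2-fold. Most changes of these sizes would thus be missed. Lists of other cell types' markers covered endothelium, pericytes and fibroblasts, leukocytes, photoreceptors, pigment epithelium and inner retinal neurons, of which the last had 2 of 9 tested genes with positive differences. Alternatives changed the scaling, floor, filter, variance trend, unit of replication and arrays. Figures were drawn with matplotlib 3.10.9.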

Additional observations from a re-analysis of the deposited data

How the results depend on the processing

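Both Timp1 probe sets kept a positive and Timp3 a negative difference in every alternative run. The filter, variance trend and unit of replication leave each difference as it is, so these alternatives could not turn any sign. For Timp1, whose groups did not overlap, leaving arrays out could hardly turn it either. Timp1 ran from 0.50 to 1.40 on rc_AI169327_at and from 1.37 to 2.69 on rc_AI169327_g_at, and Timp3 from -1.45 to -0.29. The value 1.40 is the mean of both Timp1 probe sets. Without scaling between arrays the median of all tested probe sets was 0.47. Relative to it, Timp1 was at 0.73 and Timp3 at -0.77. Timp2, Mmp2 (X71466_at) and Plat kept their sign in all 15 alternatives. Mmp14 turned negative on the 3 arrays with the lower actin ratio (-0.033) and between the arrays of the shared day (-0.26). Plau turned negative with a floor of 50 (-0.098) and ran from -0.20 (without normal array 2) to 0.37 with 1 array left out. The cause of these changes was not tested. No probe set of the 9 genes was called under any alternative. Treating the 5 arrays as separate samples, which counts the technical repeat as independent, gave unadjusted p of 0.0269 and 0.00729 for rc_AI169327_at and rc_AI169327_g_at of Timp1 (limma). The unadjusted p of rc_AI169327_g_at was also under 0.05 with a common median (0.0318), a floor of 50 (0.0441), without normal array 1 (0.0374) and without normal array 2 (0.0275). Adjusted p over the alternatives was no lower than 0.615 and 0.565 for these probe sets.

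Over all probe sets, limma called 147 with a floor of 50, 170 with dim probe sets kept and 13 with 5 separate arrays. Of these, 138, 162 and 1 had all normal arrays at the floor, where the normal pools have no spread. With 1 array left out, counts without overlap ran from 847 to 1425 above and 752 to 1339 below over all probe sets, and from 2 to 4 above and 0 to 1 below among the probe sets of the 9 genes, of which 9 were tested without normal array 3 and 8 in the other such fits. On the 3 arrays with the lower actin ratio they were 2107 above and 2117 below over all, and 4 above and 1 below among the 8. Fewer arrays overlap less by construction. Unscaled values gave 13 below, and without the filter 1 of the 11 probe sets (Mmp2, U65656_at) lay below, against 467 of 8740 (5.34%). No paired analysis was possible because the diabetic arrays are repeats of 1 pool, and the groups share only the replicate number 2 in the labels. Signals near the floor limit Mmp9, Plaur and the dimmer Mmp2 probe set.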
